A study of Homo sapiens with 13 samples.

Results

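The TAZ peak list of the MDA-MB-231 human breast cancer cell line held 9798 binding regions, 19.4% of the 50467 peaks in the 4 factor lists of the study. Every row of the list was taken, with no selection. TAZ was precipitated with an antibody to WWTR1 (Sigma, HPA007415) from 2 replicate libraries, and its peaks were scored against pooled rabbit IgG (Sigma, I5006), also 2 libraries. All 13 libraries of the study came from sonicated, cross-linked chromatin of this single cell line, grown in serum-containing medium with no treatment named in the labels. The study also mapped YAP, TEAD4 and JUN, 2 libraries each, with mouse IgG as the control for TEAD4 and JUN (3 libraries), and these lists serve here as background. TAZ, YAP and rabbit IgG were on the same sequencing run, going by the raw file names in the labels. Peak names in the TAZ list carry the tag "YAPTAZ", and no source used here says what it means. Whether the list was called from the TAZ libraries alone is therefore not settled, and pileups below are those of the list as deposited.

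TAZ is the protein product of WWTR1 and a paralogue of YAP. Both are transcriptional coactivators restrained by the Hippo kinase pathway, which holds them in the cytoplasm when it is active. Neither has a DNA-binding domain, and both are brought to enhancers and promoters by TEAD transcription factors, often at sites that also hold AP-1 proteins such as JUN. In breast cancer cells TAZ is known for its part in growth, migration and stem-like traits.

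The list is a single joint product of both replicates, so no value below has a replicate spread and no difference within it was tested. Intervals are exact 95% intervals and cover counting error only. Positions are on build hg19 and regions are named by position, since no gene annotation or genome sequence of that build was used here. Peak numbers in the names run up to 43671, and if they count all candidate regions, 22.4% of the candidates were listed. The listed peaks covered 6.33 Mb in all. Their width ran from 241 to 3166 bp with a median of 587 bp. Enrichment over IgG, a fold value of the authors, ran from 2.81 to 35.8 with a median of 6.96. The −log10 p ran from 21.99 to 362 with a median of 41.1.

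The number of fragments behind each peak could be recovered from the deposited values. MACS2, the peak caller, is known to report enrichment as the pileup at the summit plus 1, divided by the expected level plus 1, and to take p from a Poisson distribution with that expected level. Solving both for every TAZ peak gave a whole-number pileup at 9798 of 9798 peaks (100%), within 0.001 in −log10 p. The same equations gave whole numbers at 7708 of 7709 YAP peaks, but at 0.262% of TEAD4 peaks and 0.977% of JUN peaks. The TAZ summit pileup ran from 44 to 370 fragments with a median of 80. Counting error alone places a pileup of 80 between 63.4 and 99.6. The expected level, which is what the IgG control predicts at the summit, ran from 6.59 to 79.1 fragments with a median of 10.5. At 632 peaks (6.45%) it sat at its lowest value of 6.59. At 4428 peaks (45.2%) it was a whole multiple of 1.11, with a median of 11 such steps. If a step is 1 control fragment, a count of 11 has a counting interval of 5.49 to 19.7. At such peaks the denominator of the enrichment is then less precise than its numerator. The precision of the other expected levels was not assessed. At 2464 sites where TAZ and YAP summits lay within 10 bp, the TAZ expected level was a median of 1.06 times that of YAP (middle 50% of sites 1.06 to 1.11). The lowest levels of the lists had the same ratio of 1.06, and the TAZ pileup was a median of 1.09 times the YAP pileup.

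The most enriched TAZ peak was chr4:165125408-165126098, 691 bp wide, at 35.8-fold. Its summit held 271 fragments where 6.59 were expected, and counting error on the pileup alone gives 31.7 to 40.3-fold. The next was chr21:17935982-17936505 at 35.1-fold, with 269 fragments where 6.68 were expected. chr1:19378908-19379524 followed at 34.9-fold with 280 fragments, and chr22:41686538-41687296 at 34.4-fold with 263. These 4 cannot be ranked among themselves: 4 intervals, that of the first included, reach the first peak's value, and 13, itself included, overlap its interval.

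The other members of the 10 most enriched lay between 29.4 and 30.8-fold. chr3:126471715-126472795 reached 30.8-fold. On chromosome 12, chr12:43355054-43355725 reached 30.5-fold and chr12:26243717-26244600 reached 30.4-fold, both from the lowest expected level of 6.59. chr5:37272440-37273129 reached 29.8-fold, chr19:2540531-2541367 reached 29.7-fold and chr9:99182591-99183304 reached 29.4-fold. All 10 overlapped a YAP and a TEAD4 peak, and 9 of 10 overlapped a JUN peak, the exception being the chromosome 5 site. Over the whole list these shares were 72.5% for YAP, 67.0% for TEAD4 and 74.7% for JUN. They lay on 9 chromosomes, and only the chromosome 19 peak had another TAZ summit within 10 kb. Their median width was 702.5 bp. Such isolation was not a trait of strong peaks at large: 28 of the 100 most enriched and 36 of the 100 of highest −log10 p had another TAZ summit within 10 kb, against 28.3% of the list. For the 979 most enriched the share was 31.7%, and the median distance to the nearest summit was 27.3 kb against 33.9 kb.

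Ranking by −log10 p kept 6 of these 10. The chromosome 5 site came first, with a −log10 p of 362, 328 fragments and 10.0 expected. The chromosome 19 site was next, with a −log10 p of 360 and 327 fragments. Entering by this measure were chr3:197216726-197217774 (22.3-fold, 369 fragments), chr3:76546379-76547495 (29.02-fold, 319 fragments), chr1:43672105-43673700 (23.2-fold, 330 fragments) and chr14:100046111-100046756 (27.2-fold, 299 fragments). The median expected level was 6.86 in the 10 most enriched peaks and 10.0 in the 10 of highest −log10 p, against 10.5 over the list.

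Ranking by pileup gave mostly other sites at the very top. Further down more were shared: 596 of the 1000 most enriched peaks were among the 1013 highest by pileup. None of the 10 most enriched peaks was among the 10 highest by pileup, and 7 of the 100 most enriched were among the 101 highest, the chromosome 5 and chromosome 19 sites included. chr3:197216726-197217774 was second by pileup. The deepest summit, chr17:66015791-66016838, held 370 fragments, but 65.7 were expected there, so its enrichment was 5.56-fold and below the list median. The 101 peaks of highest pileup (a tie at 315 fragments, the lower end set by this choice) lay between 315 and 370 fragments. Their enrichment ran from 4.18 to 29.8-fold. Their median expected level was 44.6 fragments. Of these deep summits, 92 had an expected level of at least 20 fragments, and 3 of the 92 overlapped a YAP peak. The other 9 had an expected level under 20, and all 9 overlapped a YAP peak. All 101 overlapped a TEAD4 peak.

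The peaks of high control level stood apart in these overlaps. An expected level of at least 20 fragments, a limit chosen after the values were seen, was found at 405 TAZ peaks on 20 chromosomes, 4.13% of the list. In the YAP list, called against the same IgG, 134 peaks (1.74%) reached that level. Expected levels at shared summits were a median of 1.06 times higher for TAZ, so the limit is somewhat stricter for YAP. Of the 405 peaks, 182 (44.9%, interval 40.02 to 49.93%) overlapped a YAP peak and 182 (44.9%) overlapped a JUN peak, while 338 (83.5%) overlapped a TEAD4 peak. Of the 9393 peaks under that level, 73.7% (72.8 to 74.6%) overlapped YAP, 76.0% JUN and 66.3% TEAD4. The 405 peaks thus had fewer YAP and JUN overlaps and more TEAD4 overlaps than the peaks under that level.

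The contrast was wider among strong peaks. Of the 979 peaks of highest −log10 p, 181 had an expected level of at least 20. Among these, 29 of 181 (16.0%, interval 11.0 to 22.2%) overlapped a YAP peak and 179 overlapped a TEAD4 peak. Among the other 798, YAP overlapped 778 (97.5%, interval 96.2 to 98.5%) and TEAD4 overlapped 791. These groups differed in enrichment and place as well. The 181 had a median of 8.40-fold, and 55 of them lay on chromosome 6 from 26 to 29 Mb. The 798 had a median of 15.8-fold, and 4 of them lay in that stretch. Over the whole list the share with a YAP peak did not fall steadily with the control level. It was 69.8% under 7 fragments, 72.5% at 7 to 10, 75.02% at 10 to 14 and 75.4% at 14 to 20, then 54.97% at 20 to 40 and 6.02% at 40 and over. The share with a JUN peak over the same groups was 66.7, 73.9, 78.5, 80.1, 54.3 and 8.43%. The part of the control level in the missing YAP overlap was not tested.

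**Figure D1:**
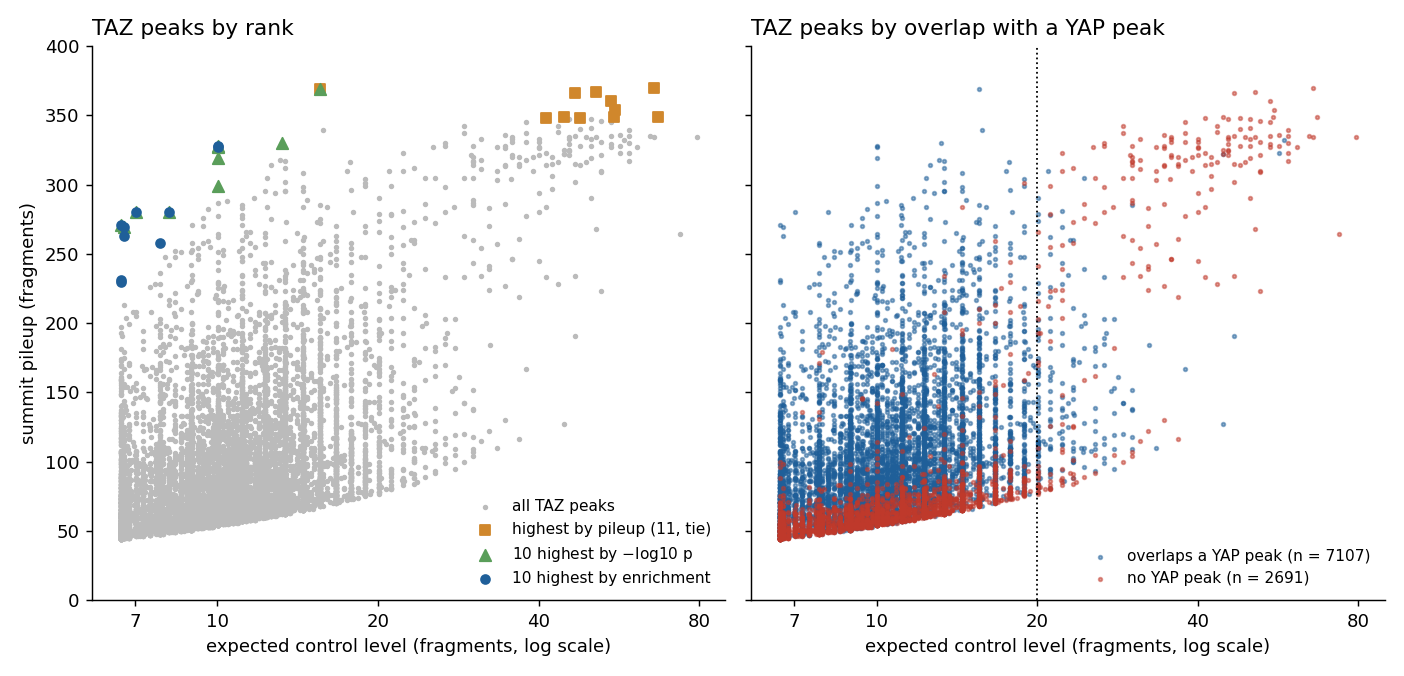
Each point is 1 of the 9798 TAZ peaks, placed by its expected control level (fragments, log scale) and its summit pileup (fragments). On the left the highest peaks by enrichment, −log10 p and pileup are marked. On the right peaks are coloured by overlap with a YAP peak, with a dotted line at 20 fragments. The most enriched peaks sit on the left, at 6.59 to 10.0 expected fragments, and the deepest summits, up to 370 fragments, sit mostly beyond 40 expected fragments and mostly lack YAP.

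The weakest listed peaks were close in −log10 p and unlike in enrichment. chr1:198745728-198746182 had the lowest −log10 p, 21.99, with 59 fragments where 12.2 were expected (4.56-fold). chr16:70885034-70885526 had 66 fragments where 15.1 were expected (4.16-fold). chr1:167789247-167789918 had 49 fragments where 8.33 were expected (5.36-fold). A higher control level demands more fragments for the same p, which follows from the Poisson formula. The 100 weakest peaks had a median of 52 fragments and a median enrichment of 5.14-fold.

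Wide peaks were stronger than narrow ones, and their control level was higher too. Width and pileup are read from the same signal, so a link between width and strength is in part built in. The narrowest 25% (at most 457 bp, 2462 peaks) had a median enrichment of 6.12-fold, a pileup of 64 and an expected level of 9.40. The widest 25% (at least 761 bp, 2450 peaks) had 8.38-fold, a pileup of 109 and an expected level of 12.0. Wide peaks also lay closer to other TAZ peaks: 36.3% had a neighbour within 10 kb, against 21.4% of narrow peaks. They overlapped other factors more often, a comparison in which width itself gives more room to overlap. YAP overlapped 81.8% of wide and 56.5% of narrow peaks, TEAD4 78.8% and 52.9%, and JUN 84.4% and 60.6%.

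The list was also divided at its median enrichment, with width limits drawn anew in each 50%. In the stronger 50%, wide and narrow peaks had medians of 10.3 and 8.20-fold. In the weaker 50%, wide and narrow peaks had medians of 5.70 and 5.68-fold, with expected levels of 12.8 and 10.0 fragments. Enrichment is capped in the weaker 50% by the division itself, so these values do not show where the gap lies. The part of the control level in the width difference was not tested. Across the 9798 peaks, Spearman's rho of width was 0.52 with pileup, 0.33 with enrichment and 0.28 with the expected level, all from the same libraries and given as a description.

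The shape of the peaks changed with width. A summit further from the midpoint than 20% of the peak's width was found in 0.609% of the narrowest 25% and 27.1% of the widest 25%. In the widest 10% the share was 34.4%. The midpoint of a wide peak is therefore a poor stand-in for its summit.

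**Figure D2:**
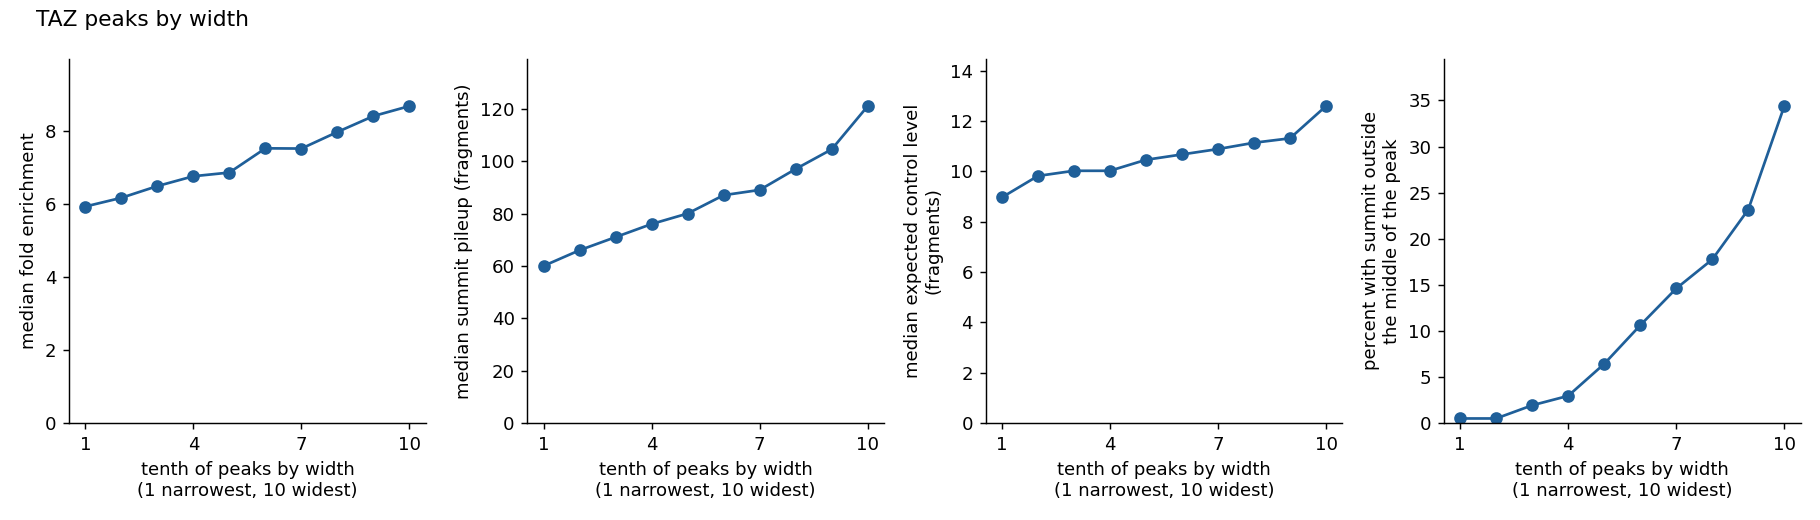
TAZ peaks in 10 groups of equal size by width, from the narrowest to the widest. The panels give the median enrichment, the median pileup and the median expected control level (fragments), and the percent of peaks with a summit more than 20% of the width away from the midpoint. From the narrowest to the widest group the median pileup went from 60 to 121 fragments and the median expected level from 8.97 to 12.6.

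The 5 widest peaks were of different kinds. chr17:8021544-8024709 was the widest at 3166 bp, with 366 fragments where 46.8 were expected (7.68-fold), and overlapped TEAD4 and JUN but no YAP peak. chr6:26311153-26314153 (3001 bp, 5.12-fold) had 335 fragments where 64.6 were expected and overlapped TEAD4 alone. chr17:8123898-8126889 (2992 bp, 8.54-fold) also overlapped TEAD4 alone, with 37.9 expected. In contrast, chr1:36816041-36818914 (2874 bp, 9.84-fold, 15.2 expected) and chr16:3071313-3074109 (2797 bp, 11.0-fold, 10.5 expected) overlapped all of YAP, TEAD4 and JUN. The list held 23 peaks of at least 2002 bp, and 47.8% of them overlapped a YAP peak, against 72.5% of the list. Without the 4 in the chromosome 6 stretch from 26 to 29 Mb, the share was 57.9% of 19.

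Over the 2922.59 Mb spanned by the 4 lists, TAZ had 3.35 peaks per Mb, against 2.64 for YAP, 2.88 for TEAD4 and 8.40 for JUN. Chromosome 17 was the densest with 4.75 TAZ peaks per Mb (interval 4.29 to 5.25), then chromosomes 19 (4.51) and 20 (4.39). Their intervals overlap. Chromosome X was the sparsest with 0.957 per Mb (0.807 to 1.13), then chromosomes 4 (2.72) and 9 (2.77). The spans include long gaps without a TAZ peak, which lower the density. The longest gap took up 33.0 of 139.8 Mb on chromosome 9 and 17.7 of 90.0 Mb on chromosome 16. The low places of these chromosomes therefore depend on the span used. The interval lay above the average density on 9 autosomes and below it on 4. The orders in the other lists were similar but not the same. Across 23 chromosomes, Spearman's rho of TAZ density was 0.95 with YAP, 0.94 with TEAD4 and 0.94 with JUN density, as a description of points that share a genome.

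The control level varied along with the density. Its median over TAZ summits was 6.68 fragments on X, where 44.1% of peaks sat at the lowest level, and 14.3 on chromosome 20. The median pileup moved with it, from 63 on X to 89 on chromosome 20, while the median enrichment went the other way, from 7.83 to 5.94-fold. Spearman's rho across the 23 chromosomes was 0.95 between pileup and control level, −0.85 between enrichment and control level and 0.70 between density and control level (0.66 over the 22 autosomes). Enrichment is divided by the control level, so these are not independent measures. Its part in the density was not tested. Divided by the median control level, the density had its highest value on chromosome 22 and its lowest autosomal value on chromosome 9. That value too rests on a span that includes the long gap of chromosome 9.

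The share of numbered candidates that were listed ran from 14.4% on chromosome 19 and 18.3% on chromosome 17 to 25.3% on chromosome 18, against 22.4% over the genome. It did not follow density throughout: the dense chromosomes 6 and 10 had 24.8% and 23.6%. Chromosomes 16 and 9, sparse over spans that include long gaps, had 20.7% and 21.5%. Within 5 Mb of the ends of a chromosome's span TAZ had 3.74 peaks per Mb against 3.32 elsewhere. YAP (2.73 and 2.63 per Mb) and JUN (10.1 and 8.26 per Mb) differed in the same direction, and TEAD4 was level (2.87 and 2.88). The median control level at TAZ summits was 10.2 fragments near the ends and 10.6 elsewhere.

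**Figure D3:**
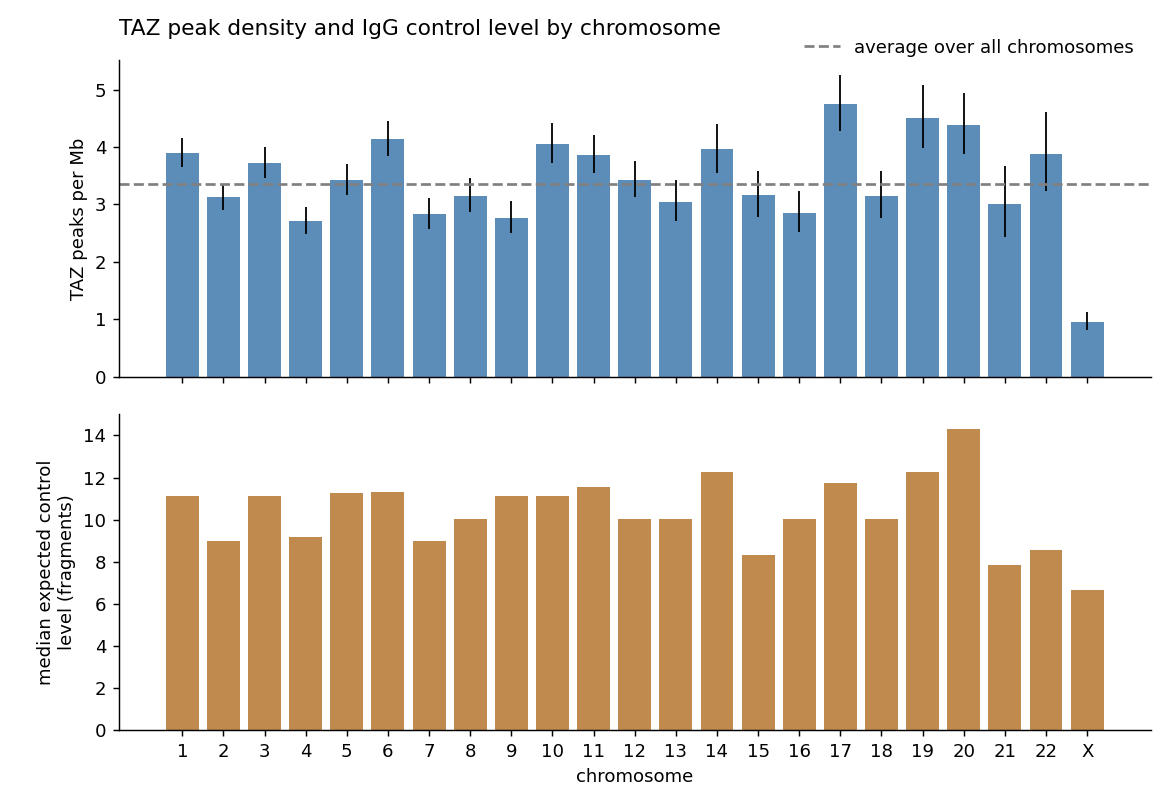
Top, TAZ peaks per Mb on each chromosome with exact Poisson 95% intervals and the average over all chromosomes (dashed). Bottom, the median expected IgG control level at the TAZ summits of that chromosome, in fragments. Chromosome X is lowest in both, with 0.957 peaks per Mb and 6.68 fragments, and chromosome 17 is the densest at 4.75 per Mb.

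TAZ summits were bunched. The gap between neighbouring summits had a median of 95.5 kb and a mean of 298 kb, which includes gaps of up to 33.0 Mb. The median distance to the nearest other TAZ summit, the smaller gap on either side, was 33.9 kb. A neighbour lay within 1 kb at 2.53% of peaks, within 5 kb at 18.0%, within 10 kb at 28.3% (27.4 to 29.2%) and within 100 kb at 72.1%. The closest pair was 400 bp apart, and no TAZ peaks overlapped each other. Within 10 kb of another of their own summits lay 24.2% of YAP, 25.4% of TEAD4 and 41.7% of JUN peaks, lists that differ in length.

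Close neighbours were not alike in enrichment. Their pileup and −log10 p were not compared. Over the 125 neighbouring pairs within 1 kb, Spearman's rho between the enrichments of both peaks was 0.03, and over the 613 pairs at 5 to 10 kb it was 0.06. For the control level the same pairs gave 0.54 and 0.54, and 0.43 over the 644 pairs more than 1000 kb apart. The enrichment of a TAZ site therefore said little about that of the next one, while control levels were shared over long distances. Neighbouring windows can share control fragments, and the pairs share their libraries.

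At the other extreme, 98 peaks (1.00%) had no other TAZ summit within 1 Mb, and 18 of them were on X. Their median enrichment was 7.13-fold and their control level 7.80 fragments. The longest gap between neighbouring TAZ summits was on chromosome 9, from 38682909 to 71712218 (33.0 Mb), which held 3 JUN peaks and no YAP or TEAD4 peak. The next, on chromosome 1 from 119822236 to 144941396 (25.1 Mb), held 8 JUN peaks, 1 YAP peak and 1 TEAD4 peak. The gap on chromosome 16 from 30065049 to 47766557 (17.7 Mb) held 22 JUN and 2 TEAD4 peaks. Chromosomes 1, 9 and 16 are known for large blocks of repetitive heterochromatin beside their centromeres.

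**Figure D4:**
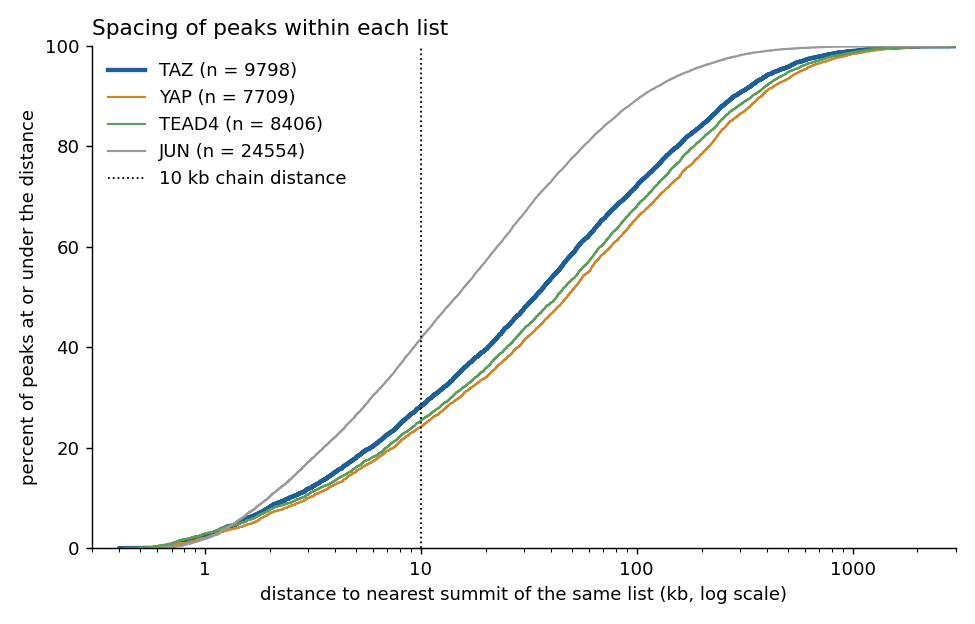
Cumulative percent of peaks by distance to the nearest summit of the same list (kb, log scale) for TAZ and the 3 background lists. At the dotted line of 10 kb the TAZ curve stands at 28.3%, above YAP and TEAD4 and below the much longer JUN list at 41.7%.

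Summits no more than 10 kb from the next were joined into chains. This gave 1212 chains with 2770 peaks: 959 pairs, 184 chains of 3, 52 of 4 and 17 of 5 or more. Chains of at least 3 held 8.70% of all peaks. The median pileup was 78 fragments in single peaks and 135.5 in chains of 5 or more, the median control level 10.0 and 13.4, and the median width 571 and 729 bp. Median enrichment was 6.90 and 7.97-fold. Without the chromosome 6 stretch described below, chains of 5 or more had a median pileup of 107 and a control level of 12.3. Within pairs the stronger peak had a median of 1.39 times the enrichment of the weaker.

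The 5 largest chains fell into 2 kinds. One ran over 20.2 kb on chromosome 1, with 6 summits from 172867083 to 172887237. Its enrichments in order were 20.3, 5.36, 9.27, 6.47, 6.96 and 17.2-fold, so both outer summits stood above those between them. All 6 overlapped a YAP peak and 5 each overlapped TEAD4 and JUN peaks, over control levels of 10.1 to 13.7. Another ran over 23.7 kb on chromosome 10, with 6 summits from 95218676 to 95242385 at 16.1, 8.07, 6.13, 11.3, 6.72 and 5.36-fold. All 6 overlapped TEAD4 and JUN and 5 overlapped YAP, over control levels of 10.0 to 13.4.

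The remaining 3 were on chromosome 6. The chain from 28757629 to 28785086 held 7 summits at 6.94 to 11.0-fold, with control levels of 10.0 to 36.8, and all 7 overlapped TEAD4 and none YAP or JUN. The chain from 28678358 to 28715501 held 6 summits at 6.27 to 13.0-fold, again all with TEAD4 and none with YAP or JUN. The longest chain, 45.0 kb from 26286725 to 26331747, held 7 summits at 5.12 to 9.72-fold with control levels of 13.0 to 64.6. Here 6 overlapped TEAD4, 2 overlapped JUN and 1 overlapped YAP.

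In bins of 1 Mb, TAZ peaks were far from even. Of 2944 bins, 671 (22.8%) held no TAZ peak, and the variance of the counts was 3.74 times their mean (YAP 3.10, TEAD4 3.52, JUN 6.74). The 31 bins with at least 15 peaks, the most crowded 1% with ties, were taken as hot spots. They lay on 13 chromosomes and held 574 peaks, 5.86% of the list (5.40 to 6.34%).

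The 2 most crowded bins adjoined each other on chromosome 6, with 38 peaks at 28 to 29 Mb and 34 at 27 to 28 Mb. On chromosome 11 the bin at 12 to 13 Mb held 24 and that at 69 to 70 Mb held 23. A further chromosome 6 bin, at 26 to 27 Mb, held 23. The next were chromosome 10 at 95 to 96 Mb (21), chromosome 15 at 67 to 68 Mb (20) and chromosome 11 at 130 to 131 Mb (20). Chromosome 22 at 27 to 28 Mb and chromosome 2 at 47 to 48 Mb held 18 each. The bins of chromosome 1 at 172 to 173 Mb, chromosome 6 at 11 to 12 Mb and chromosome 20 at 49 to 50 Mb also held 18 and came after these by summed enrichment.

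In the 28 hot spots outside the chromosome 6 stretch from 26 to 29 Mb, enrichment was close to that of the rest of the list. Their 479 peaks had a median enrichment of 6.96-fold, against 6.95 in the rest of the list, with a control level of 12.3 against 10.5. Chains held 51.1% of them against 26.7% of the rest, a contrast that choosing crowded bins builds in. YAP overlapped 79.3% and 72.8%, TEAD4 74.7% and 66.4%, and JUN 80.8% and 75.1%. All 31 hot spots held 5.86% of the list, and in them lay 7 of the 100 most enriched peaks, 11 of the 100 of highest −log10 p and 72 of the 979 most enriched. The chromosome 11 bin at 69 to 70 Mb was among the mixed ones, with a median of 7.26-fold and a strongest peak of 26.1-fold, and 21 of its 23 peaks overlapped YAP. The chromosome 15 bin had a low control level of 8.36 fragments and a strongest peak of 26.7-fold. The chromosome 22 bin had the highest median of these 10 bins at 9.09-fold, over a control level of 8.65.

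Crowding and the control level moved together here too. The median control level of peaks was 8.54 fragments in bins with 1 TAZ peak, 9.65 at 2 to 4 peaks, 10.7 at 5 to 9, 11.5 at 10 to 14 and 13.0 in hot spots. The median enrichment over the same groups was 7.16, 7.02, 6.89, 6.87 and 7.08-fold. The part of the control level in the crowding was not tested. The 979 most enriched peaks were spread over 732 bins, with at most 5 in any bin. The longest runs of neighbouring bins with at least 5 TAZ peaks each covered 8 Mb. They were chromosome 17 from 36 to 44 Mb (71 peaks), chromosome 9 from 130 to 138 Mb (60 peaks) and chromosome 17 from 73 to 81 Mb (56 peaks).

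**Figure D5:**
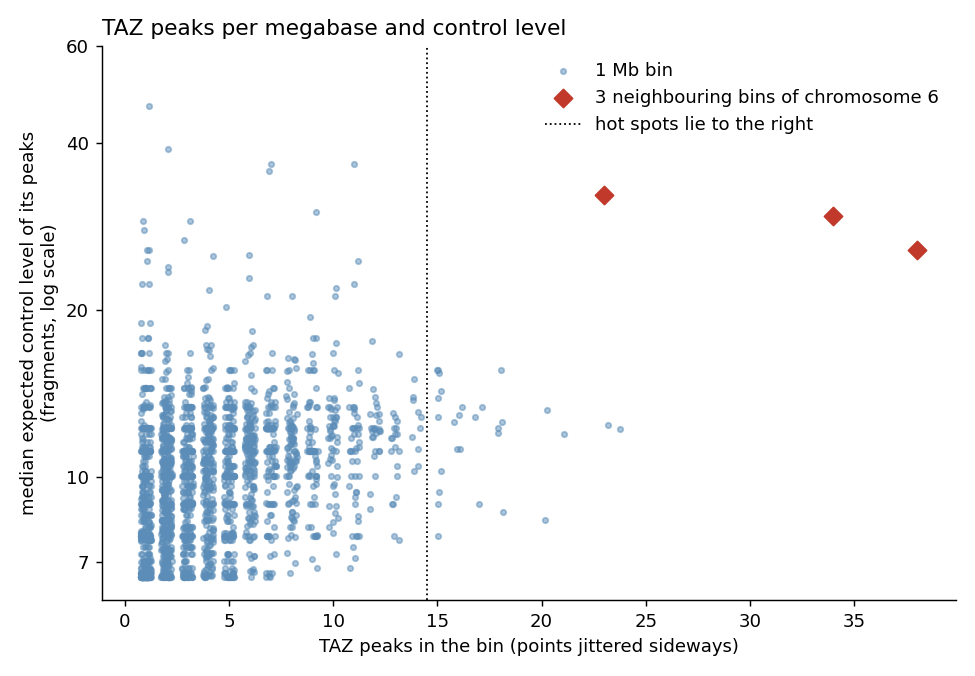
Each point is a 1 Mb bin holding at least 1 TAZ peak, placed by its number of TAZ peaks and the median expected control level of those peaks (fragments, log scale). The 3 chromosome 6 bins (red diamonds) stand apart at 23 to 38 peaks and 25.6 to 32.3 fragments, while the other 28 hot spots, right of the dotted line, lie between 7.80 and 15.6 fragments.

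The 3 Mb of chromosome 6 from 26 to 29 Mb stood apart in pileup and control level. Its 95 peaks had a median pileup of 246 fragments against 80 in the rest of the list, and a control level of 28.96 against 10.5. The median enrichment was 7.35-fold against 6.95-fold, so the ratio to control was near that of the rest. The −log10 p was not: at 7 to 8-fold enrichment its median was 149 for the 16 peaks in this stretch and 44.2 for the 1218 outside it. YAP overlapped 8.42% of the 95 peaks and JUN 7.37%, against 73.2% and 75.4% elsewhere, while TEAD4 overlapped 88.4% against 66.8%. Of the numbered candidates in its 3 bins, 63.3%, 56.7% and 42.6% were listed, against 22.4% over all candidates. The listed share was also high in other hot spots, up to 50% on chromosome 2 at 227 to 228 Mb. Hot spots were chosen by their number of listed peaks. A raised share in them, the 3 bins of this stretch included, is therefore in part built in. This part of the short arm is known for a large cluster of histone and transfer RNA genes, stated as background and not from an annotation used here. The stretch held 0.970% of the list and 32 of the 101 deepest summits. It held 0 of the 100 most enriched peaks and 0 of the 100 of highest −log10 p, a count near its share of the list. Further down the −log10 p ranking its part was larger than that share. Among the strongest 10% by −log10 p, it held 55 of the 181 peaks with at least 20 expected fragments. Of the other 798 it held 4.

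High control levels were not confined to that stretch. Of the 405 peaks with at least 20 expected fragments, 65 lay in it and 340 outside. The 340 had a median of 6.01-fold and a pileup of 166, and 52.6% overlapped YAP. Few YAP overlaps at the highest control levels were not confined to the stretch. Of the 83 peaks with 40 or more expected fragments, 31 lay in it, while 6.02% of all 83 overlapped YAP and 98.8% TEAD4. The 405 peaks were scattered: 216 bins held at least 1 of them and 27 bins held 3 or more. Beyond the stretch, the bins with most were chromosome 6 at 35 to 36 Mb (10) and 42 to 43 Mb (9), and chromosome 1 at 161 to 162 Mb (8). These bins were chosen after their values were seen.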

How the data were processed

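The submitters' processing notes name hg19 as the build and list MACS2 2.0.10, Bowtie 0.12.7, CASAVA and SAMtools. Per the labels the authors called TAZ peaks against pooled rabbit IgG within the IDR (irreproducible discovery rate) framework at 0.01. The deposited list gives position, summit, fold enrichment (a ratio to the control), the −log10 of the p-value, and a q-value and a score that were not used. Reads and their depth were not analysed here. Pileup and expected level were solved from enrichment and p (pseudocount 1). This assumes the usual MACS2 formulas and was tested on simulated data. Overlap means at least 1 bp. Density uses the span of the 4 lists, with exact Poisson intervals, and shares have Clopper-Pearson intervals. Bins are fixed 1 Mb windows. Python 3.11.15, numpy 2.4.6, pandas 2.3.3, scipy 1.17.1 and matplotlib 3.10.9 were used.

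Regions were named by rule: the 10 peaks highest in enrichment and in −log10 p, the 10 fullest bins (ties by summed enrichment), the 5 largest chains, the 5 widest and 3 weakest peaks, the 3 densest and 3 sparsest chromosomes and the 3 longest gaps holding other peaks. Others are said to be chosen after their values were seen, as was the deepest summit. The peaks, lists and rules were chosen with earlier results of these data known. Alternatives varied distance, bin size, ranking, strength and chromosomes.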

Additional observations from a re-analysis of the deposited data

How the results depend on the processing

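No paired analysis was possible because the list is a joint product of both replicates, and for the same reason no replicate could be left out. Of 67 alternatives over 11 values, 44 stayed within the counting interval (or within 1.5 times for counts), 23 moved and 0 reversed. Of the 44 that stayed, 23 were runs of the listed share alone, each without a single chromosome. A reversal could be recorded only for the wide minus narrow differences. With the stronger 50% of peaks by −log10 p, the ratio of densest to sparsest autosome went from 1.75 to 2.01, the median nearest distance from 33.9 to 67.8 kb, the share within 10 kb from 28.3 to 20.2%, the share in chains of at least 3 from 8.70 to 4.53% and the share in hot spots from 5.86 to 8.57%, with fewer peaks by construction. Measured from peak edges, 29.2% lay within 10 kb. Chains of at least 3 held 3.55% of peaks at 5 kb, 16.4% at 20 kb and 33.7% at 50 kb. The wide minus narrow difference was 2.26-fold in enrichment, 2.55 fragments in control level and 45 in pileup. Between the outer 10% by width it was 2.75-fold, 3.63 and 61. In the stronger 50% by enrichment, the control level and pileup differed by 3.14 and 58. In the weaker 50%, enrichment and pileup differed by 0.020-fold and 14. Of the 10 most enriched peaks, 6 stayed when ranked by −log10 p and 0 when ranked by pileup. Hot spots held 7.41% of peaks in 500 kb bins, 4.51% in 2 Mb bins and 6.38% without chromosome 6 from 26 to 29 Mb. The fullest bin held 38 peaks, 24 without that stretch, and 22 chains when chains were counted. Leaving out each of 23 chromosomes in turn moved the listed share between 22.3 and 22.8%. Density over control level, wide peaks and chains without the stretch, and ranking by pileup were chosen after seeing the data.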

Other observations

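The highest TAZ pileup was 370 fragments. The 101 deepest summits spanned 315 to 370 fragments while their control level ran far more widely. These summits were chosen by pileup, which narrows its range by construction, so their enrichment mostly follows the control level. Whether the pileup has a limit near 370 fragments was not tested. Because precise fragment numbers come from solving the deposited values, they depend on the assumed formulas, which gave whole numbers at 9798 of 9798 TAZ peaks.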
